A study of Rattus norvegicus with 26 samples.

Results

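A window of rat chromosome 1 was described row by row, with the working name Cyp2c window. It was chosen by position and by raw counts: rows between 257700000 and 258600000, of which the 10 with the highest counts summed over the 26 libraries were to be kept. Exactly 10 of the 32552 rows of the count files lie in the window, so all 10 were kept and the counts left none out. The summed counts and the choice of this window are a description and support no result. A single row, ENSRNOG00000052810, held 260469 of the members' counts (99.2%). Sources used here do not give the genome build, and coordinates are as deposited.

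Cyp2c genes encode cytochrome P450 enzymes, haem proteins of the endoplasmic reticulum that oxidise drugs, steroids and fatty acids with electrons from a reductase. They are most abundant in hepatocytes, and in rat liver several are activated only after birth. Several rat members are known to differ between adult males and females, with growth hormone secretion as the main signal. The files carry identifiers only, and the RefSeq table used here matched 0 of the 32552. That table, of assembly GRCr8, lists 17 Cyp2c entries on chromosome 1 (11 protein coding, 6 pseudogenes), but none could be tied to a row. Whether the members are Cyp2c genes was therefore not checked, and no member is given a gene name, role or sequence.

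Hepatocyte RNA from rats was sequenced before and after transplantation of fetal cells into adult liver. Before transplantation there were 4 libraries of adult hepatocytes and 12 of immunopurified fetal hepatocytes, in sorts named LAP+, LAP+/OC2- and LAP+/OC2+ (4 each), whose names are not spelled out in the labels. After transplantation, laser capture gave 5 libraries of colonies grown from fetal cells (Colony) and 5 of the adult liver around them (Host), each pair from the same animal (242, 243, 246, 248 and 249). Strain, age, sex and any pooling are not given in the labels, which also do not say which fetal sort was transplanted or what distinguished colony from host at capture. Cell RNA and captured tissue went through different library kits, so levels are given within each stage and not compared between stages. In captured tissue, fewer cells of a type and less RNA per cell cannot be told apart. Because no identifier could be paired with a symbol, the labelled cell types could not be checked against their markers.

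Library totals ran from 7871347 to 16874438 counts, so that 3 counts, the limit that a count of 0 allows, corresponded to 0.178 to 0.381 CPM (counts per 1000000 counts of the library). Mitochondrial features took 38.9% to 78.6% of the LAP+/OC2+ counts and at most 10.3% elsewhere, which left 1917734 to 5045098 nuclear counts in that sort. Adult library 2 stood apart. Of the genes at 10 CPM or more in the other adult libraries, 43 were over 10-fold lower there and 17 genes were over 10-fold higher, against 0 or 1 in either direction for the other adult libraries. The 47 features of chromosome Y had 57 counts in it, or 3.82 CPM of nuclear counts. The other adult libraries had 1605 to 2107, and no library of another group was below 68.2 CPM of nuclear counts. Among the adult libraries, these features and ENSRNOG00000052810, given next, were both lowest in library 2. The LAP+ libraries, without a count of ENSRNOG00000052810, had 89.0 to 167 CPM of nuclear counts on these features. The part of these features in any result was not tested. The main tests against adult cells are given with and without adult library 2. The p-values of LAP+/OC2+ against the other fetal sorts, and the search for genes with similar group means, are given with it included.

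The members lie on both strands and differ widely in size. ENSRNOG00000052810 spans chr1:257970345-258004434 on the plus strand, with 8 exons of 1701 nt in all. ENSRNOG00000013241 (chr1:258074860-258139176, 9 exons, 1989 nt) and ENSRNOG00000001466 (chr1:258210344-258252448, 9 exons, 1467 nt) follow on the same strand with 551 and 1459 counts over the 26 libraries. Upstream of them, ENSRNOG00000047104 (chr1:257766691-257949183, plus strand) has 44 exon entries that merge into 23 blocks of 2545 nt, and it had 26 counts. ENSRNOG00000045862 (chr1:258476697-258477481) and ENSRNOG00000059980 (chr1:258163108-258163212), both on the minus strand, had 5 and 2 counts. The 4 remaining rows had no count in any library. They are ENSRNOG00000050417 and ENSRNOG00000047214 on the plus strand, at chr1:257724842-257729237 and chr1:257747175-257749708, and the minus-strand rows of 111 nt ENSRNOG00000058200 (chr1:258253043-258253153) and ENSRNOG00000052535 (chr1:258259891-258260001). No member shared exon bases with another row. Just outside the window, ENSRNOG00000036598 (1108 counts) and ENSRNOG00000047692 (146 counts) cross its left edge, and the next rows to the right, ENSRNOG00000047945 and ENSRNOG00000049464, held 61114 and 147610.

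**Figure D1:**
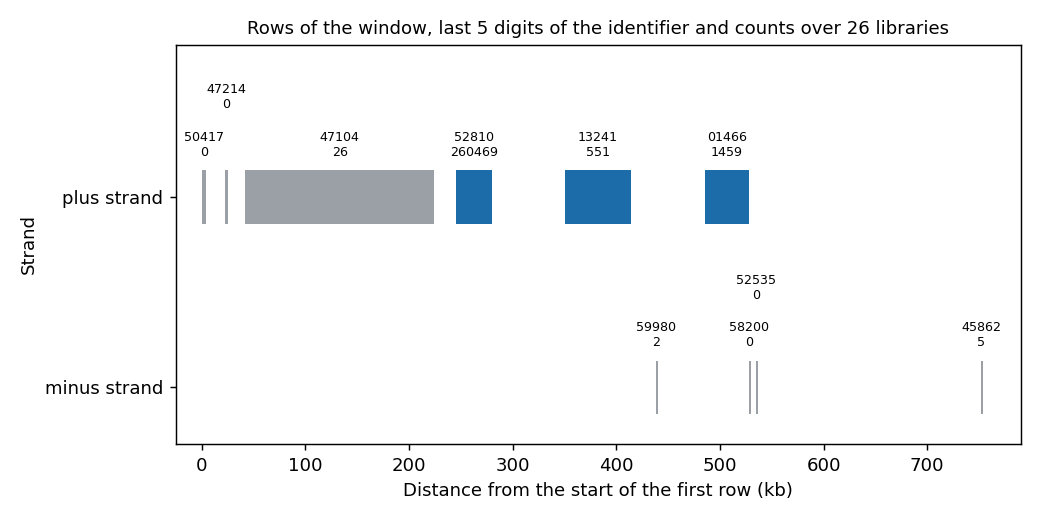
Position and span of the 10 rows of the window on each strand (x axis, distance from the start of the first row in kb), with the last 5 digits of each identifier and its raw counts over the 26 libraries; rows shorter than 1.5 kb are drawn 1.5 kb wide. The 3 rows in blue, all on the plus strand, held 260469, 551 and 1459 counts from left to right.

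ENSRNOG00000052810 was abundant in 3 of 4 adult libraries, at 14.8 CPM or less in every fetal library, and abundant in captured tissue, both host and colony. In adult hepatocytes it had 24122, 158, 35569 and 31681 counts in libraries 1 to 4, or 1807, 10.3, 2342 and 2141 CPM after TMM scaling. Library 2 was thus far below the other adult libraries. The group mean was 1575 ± 1066 CPM (SD, n = 4), and 2097 ± 270.1 CPM (SD, n = 3) without library 2. By abundance among nuclear features it ranked between 44 and 53 in the other adult libraries and 6578 in library 2.

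None of the 4 LAP+ libraries held a count of ENSRNOG00000052810 among 61869214 counts in all, and 3 counts correspond to 0.19 to 0.198 CPM in these libraries. LAP+/OC2- cells had 316, 310, 167 and 178 counts in libraries 1, 3, 4 and 5, at 14.8, 14.3, 9.38 and 8.79 CPM. LAP+/OC2+ cells had 48, 0, 68 and 66 counts in libraries 1 to 4, at 12.4, 0, 11.1 and 7.59 CPM. The library without a count in that sort carries the same number as the adult library that stood apart. Both OC2 sorts lay at 0.419% to 0.706% (LAP+/OC2-) and 0% to 0.59% (LAP+/OC2+) of the mean of adult libraries 1, 3 and 4. On nuclear counts without TMM scaling these shares were 0.514% to 1.01% and 0% to 1.16%, and the highest was then LAP+/OC2+ library 1 in place of LAP+/OC2- library 1. Adult library 2, at 10.3 CPM, fell inside the range of the OC2 sorts, so the groups overlapped through that library alone.

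**Figure D2:**
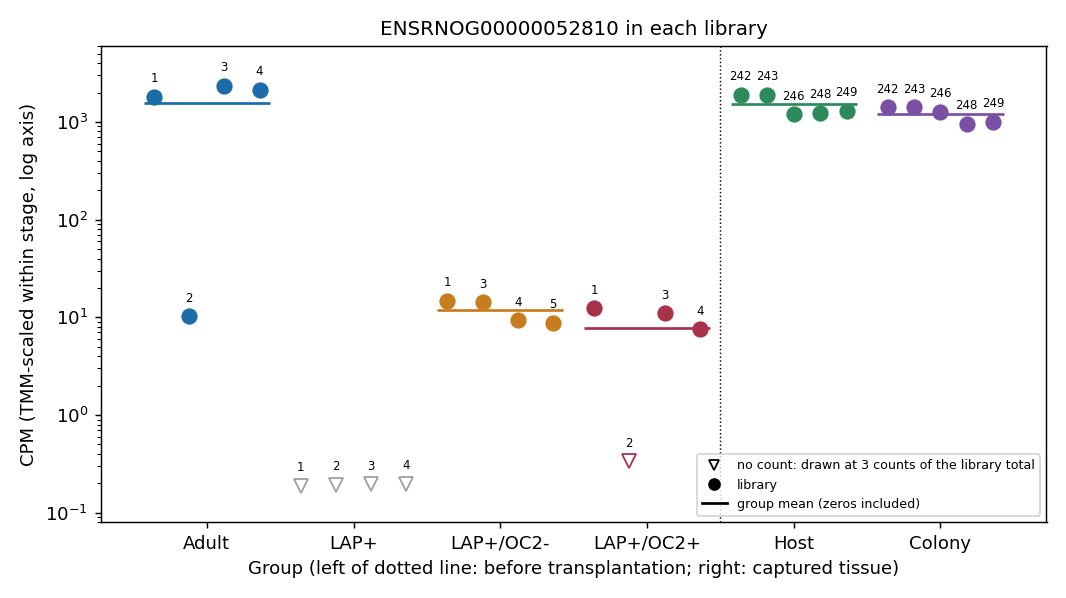
CPM of ENSRNOG00000052810 in each library (TMM-scaled within stage, log axis), by group, with the library or animal number above each point and the group mean as a line; open triangles mark libraries without a count, drawn at 3 counts of the library total. Adult libraries 1, 3 and 4 and all tissue libraries lie between 956 and 2342 CPM, while every fetal library and adult library 2 lie at or below 14.8 CPM.

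Only ENSRNOG00000052810 passed the filter on low counts among the groups before transplantation, so it alone of the 10 members was tested there. It fell in the mean of the fetal sorts against adult cells, with a log2 difference of -10.75 (SE 1.05, edgeR adjusted p = 1.8e-06). Without adult library 2 the difference was -11.19 (edgeR adjusted p = 5.8e-10). Both sizes average the log2 differences of the 3 sorts, so they depend on how LAP+ libraries without a count are treated. Lower genes made up 35.3% of the 13818 tested in this comparison, so a call alone was common. Against LAP+ cells, adult cells were at least 7690-fold higher when each LAP+ library is set to 3 counts, and at least 10236-fold higher without adult library 2 (edgeR adjusted p = 4.2e-05 and 2.9e-08, 28.5% of genes called lower in LAP+). Adult library 2 itself was at least 50.4-fold above that limit.

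The OC2 sorts were also lower than adult cells. The log2 difference was -7.66 for LAP+/OC2+ (SE 1.39, edgeR adjusted p = 0.00032), where 38.6% of genes were called lower. It was -7.06 for LAP+/OC2- (SE 1.34, edgeR adjusted p = 0.00073), where 28.4% were called lower. Without adult library 2 these differences were -8.11 and -7.49 (edgeR adjusted p = 2.0e-07 and 8.5e-07).

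Among the fetal sorts, counts of ENSRNOG00000052810 were found in 7 of 8 OC2 libraries and in none of the 4 LAP+ libraries. LAP+/OC2+ cells were at least 28.3-fold above the limit for LAP+ libraries (edgeR adjusted p = 0.0034, 32% of genes called higher), with 3 of 4 libraries above it. This call was lost with limma-voom and quality weights (adjusted p = 0.061). LAP+/OC2- cells were at least 78.0-fold above the same limit, with 4 of 4 libraries above it, yet missed the threshold in the test on all 16 libraries (edgeR adjusted p = 0.12, 0.246% of genes called higher). The call passed without adult library 2 (edgeR adjusted p = 0.00025) and in a fit of the fetal sorts alone (edgeR adjusted p = 0.0023). On all 16 libraries it passed with DESeq2 (adjusted p = 1.5e-07) and with the replicate number as a block (edgeR adjusted p = 3.3e-06), although the labels do not say that these numbers pair libraries. The call still missed the threshold in 20 of 25 alternatives, of which 15 left out 1 library other than adult library 2. Among the 20 was limma-voom with quality weights (adjusted p = 0.32). Others were no filter on low counts (edgeR adjusted p = 0.35) and a stricter filter (edgeR adjusted p = 0.057). Between LAP+/OC2+ and LAP+/OC2- the log2 difference was -0.60 (SE 1.11, edgeR adjusted p = 0.65), in a comparison where 67.5% of genes were called in either direction. On nuclear counts without TMM scaling the OC2 sorts stood at 15.9 CPM (LAP+/OC2-) and 14.6 CPM (LAP+/OC2+), against 11.8 ± 3.17 and 7.76 ± 5.55 CPM (SD, n = 4 each) with all counts and TMM scaling. In a fit without mitochondrial features, with TMM scaling kept, the log2 difference between LAP+/OC2+ and LAP+/OC2- was -0.60 (SE 1.12, edgeR adjusted p = 0.66). The 2 ways of giving levels differ in both TMM scaling and mitochondrial counts, and the part of each in the levels was not tested.

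ENSRNOG00000013241 and ENSRNOG00000001466 also had more counts in adult than in fetal cells, at far lower numbers. In adult libraries 1 to 4, ENSRNOG00000013241 had 125, 0, 29 and 29 counts and ENSRNOG00000001466 had 48, 0, 17 and 12. Library 1 was the highest for both and library 2 had none. No fetal library held more than 2 counts of either: ENSRNOG00000013241 had 1 count in LAP+/OC2- library 1 and 1 in LAP+/OC2+ library 2. ENSRNOG00000001466 had 1 count each in LAP+ libraries 3 and 4, in LAP+/OC2- library 5 and in LAP+/OC2+ library 1, and 2 counts in LAP+/OC2- library 3. With no filter on low counts, 3 of 4 members tested were called lower in the fetal mean than in adult cells, where 22.9% of 23217 genes were. The edgeR adjusted p was 0.0001 for ENSRNOG00000013241 and 1.5e-05 for ENSRNOG00000001466. Without adult library 2 both passed the filter, through the adult libraries where they are high, so the lower call there (edgeR adjusted p = 2.1e-07 and 7.4e-07) was fixed by that choice.

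ENSRNOG00000047104 had another pattern. Of its 26 counts, 12 fell in LAP+/OC2+ cells, with 1, 6, 4 and 1 in libraries 1 to 4. The LAP+ libraries had none, LAP+/OC2- library 3 had 2 and adult library 1 had 2. Host animals 242, 243, 246 and 249 had 5, 1, 1 and 2 counts, and colony animal 242 had 1. With no filter on low counts it was called higher in LAP+/OC2+ than in LAP+ cells (edgeR adjusted p = 0.0011), as was ENSRNOG00000052810, where 22.2% of genes were called higher. At 1 to 6 counts a library, no fold is given. ENSRNOG00000045862 had 1 count in host animal 246 and 4 in colony animal 249, and ENSRNOG00000059980 had 2 in colony animal 246.

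In captured tissue, ENSRNOG00000052810 was abundant in every library. Host tissue had 17750, 26095, 13462, 12647 and 14591 counts in animals 242, 243, 246, 248 and 249, at 1909, 1892, 1200.2, 1249 and 1305 CPM. Colony tissue of the same animals had 21486, 18300, 16680, 8641 and 18134 counts, at 1415, 1420.3, 1269, 956 and 1007 CPM. Animals 242 and 243 were the highest in both tissues, and the host and colony ranges overlapped. The group means were 1511 ± 358 CPM in host and 1213 ± 221 CPM in colony tissue (SD, n = 5 each). By abundance among nuclear features it ranked between 49 and 74 in host and between 50 and 77 in colony libraries.

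After TMM scaling, colony tissue was lower in 4 of 5 animals, by log2 differences of -0.43, -0.41, -0.39 and -0.37 in animals 242, 243, 248 and 249, and higher by 0.08 in animal 246. Without TMM scaling it was lower in 3 of 5, since animal 249 turned (1178 CPM in host and 1223 in colony tissue) and animal 242 differed by -0.05 on the log2 scale, and the means were 1376 ± 267 and 1321 ± 224 CPM (SD, n = 5 each). The fitted log2 difference was -0.31 (SE 0.13, edgeR adjusted p = 0.2), which missed the threshold, and it was -0.14 with a stricter filter on low counts (edgeR adjusted p = 0.41). None of the 3 members tested was called between colony and host, where 1.17% of 22303 genes were called in either direction. Of the animals left out in turn, only animal 246 changed the edgeR call for ENSRNOG00000052810. Without this animal the difference was -0.40 (edgeR adjusted p = 0.0061), and 2683 genes were called in place of 262. The call also depended on the method. With all animals, DESeq2 missed the threshold (adjusted p = 0.059). Limma-voom with quality weights called ENSRNOG00000052810 (log2 difference -0.34, adjusted p = 0.0042), as it did 3205 genes.

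ENSRNOG00000001466 varied more among animals than between the tissues. Host tissue had 39, 478, 78, 71 and 92 counts in animals 242, 243, 246, 248 and 249, at 4.20, 34.7, 6.95, 7.01 and 8.23 CPM. Colony tissue had 52, 302, 165, 48 and 51 counts, at 3.43, 23.4, 12.6, 5.31 and 2.83 CPM. Animal 243 was the highest in both tissues, and the mean of its pair was 7.62 times that of the lowest animal, against 1.51 times for ENSRNOG00000052810. The fitted colony minus host log2 difference was -0.38 (SE 0.24, edgeR adjusted p = 0.39). Colony was lower in 4 of 5 animals with TMM scaling and in 3 of 5 without it, where animal 242 turned (3.67 CPM in host and 3.90 in colony tissue).

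ENSRNOG00000013241 also peaked in animal 243. Host tissue had 20, 118, 35, 2 and 29 counts and colony tissue 13, 69, 45, 15 and 20 counts in the same order of animals. These are 2.15, 8.56, 3.12, 0.198 and 2.59 CPM in host and 0.856, 5.36, 3.42, 1.66 and 1.11 CPM in colony tissue. Colony was lower in 3 of 5 animals with and without TMM scaling, and the fitted log2 difference was -0.27 (SE 0.49, edgeR adjusted p = 0.78). The median log2 difference of the 3 tested members was that of ENSRNOG00000052810, -0.31, against 0.11 over all genes tested.

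**Figure D3:**
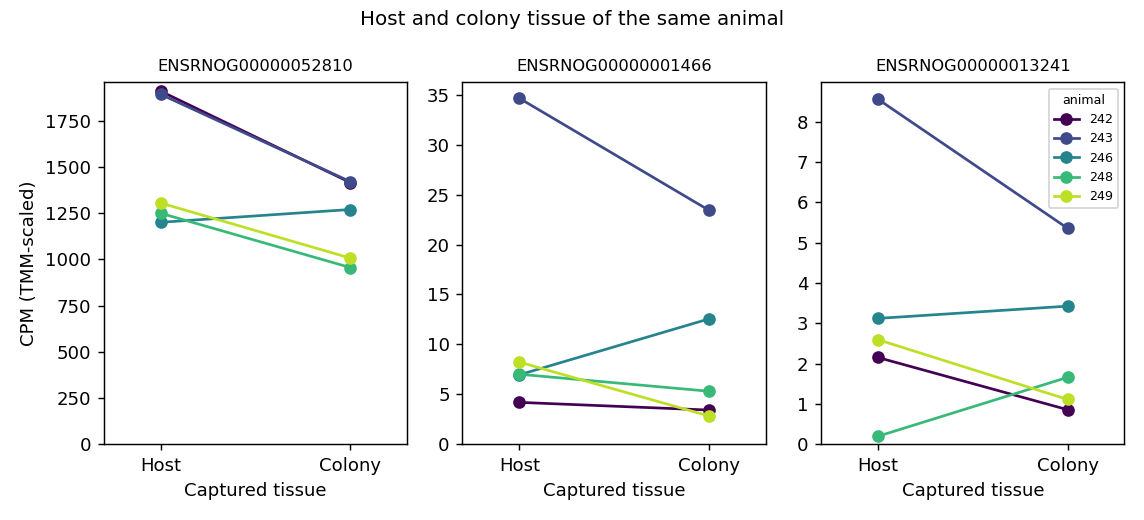
CPM (TMM-scaled) in host and colony tissue of each animal, joined by a line, for ENSRNOG00000052810, ENSRNOG00000001466 and ENSRNOG00000013241 (y axes differ and start at 0). Lines slope down in 4, 4 and 3 of 5 animals, against 3 in each without TMM scaling, and animal 243 is the highest in both tissues for ENSRNOG00000001466 and ENSRNOG00000013241.

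The adult excess seen before transplantation was set against the colony and host difference in 1 model of all 26 libraries. The term was the colony minus host difference less the LAP+ minus adult difference. The 3 members that passed the filter on low counts were all called higher in this term, where 9.85% of 23459 genes were. The other 7 members were not tested, and the 3 passed through the adult and tissue libraries, so the count is a description. The log2 value was 8.44 for ENSRNOG00000013241 (SE 1.89, edgeR adjusted p = 0.0022) and 4.85 for ENSRNOG00000001466 (SE 1.20, edgeR adjusted p = 0.0035). ENSRNOG00000052810 gave 17.33 (edgeR adjusted p = 5.6e-05), a fitted size that depends on how LAP+ libraries without a count are treated, as does that of ENSRNOG00000013241. The calls held without adult library 2 (edgeR adjusted p = 1.1e-08, 9.5e-06 and 3.4e-05 for ENSRNOG00000052810, ENSRNOG00000013241 and ENSRNOG00000001466). The median over all genes was -0.02 with TMM scaling and 0.18 with RLE size factors, and the calls went from 2311 higher and 4023 lower to 2925 higher and 3027 lower. All 3 members stayed higher under both. Library kit, captured material and time change together with the stage, and their parts cannot be told apart.

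Within a library, members can be compared per kb of exon. ENSRNOG00000052810 stood at 888 ± 210.3 CPM per kb in host and 713 ± 130.1 in colony tissue (SD, n = 5 each). ENSRNOG00000001466 stood at 8.32 ± 8.61 and 6.48 ± 5.93, and ENSRNOG00000013241 at 1.67 ± 1.57 and 1.25 ± 0.952, in the same tissues and unit. The order of the minor members differed by stage. The ratio of ENSRNOG00000001466 to ENSRNOG00000013241 per kb was 0.521, 0.795 and 0.561 in adult libraries 1, 3 and 4, below 1 in each. These ratios rest on 48, 17 and 12 counts of ENSRNOG00000001466 and 125, 29 and 29 of ENSRNOG00000013241. It was above 1 in all 10 tissue libraries, from 2.64 to 48.1 in host and from 3.46 to 5.93 in colony tissue, with 48.1 resting on 2 counts of ENSRNOG00000013241 in host animal 248. Library kit, captured material and time change together with this order, and their parts cannot be told apart.

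The next row beyond the window was highest where ENSRNOG00000052810 was lowest in adult and LAP+/OC2+ cells, in library 2 of each. ENSRNOG00000047945 (chr1:258709721-258766881, minus strand) lies 232240 nt beyond the last member and is no member. It was chosen after its values were seen. In adult libraries 1 to 4 it stood at 30.5, 3496, 34.3 and 23.4 CPM, so that library 2, the lowest for ENSRNOG00000052810, was the highest here. In LAP+/OC2+ libraries 1 to 4 it stood at 1.55, 24.2, 0.489 and 0.23 CPM, again with library 2 the highest. LAP+/OC2- cells ranged from 6.96 to 10.9 CPM, LAP+ cells from 0.22 in library 2 to 3.60, and tissue from 28.4 to 56.0. The row after it, ENSRNOG00000049464 (chr1:258796622-258877045, minus strand), went with ENSRNOG00000052810 instead, at 1655, 9.81, 1181 and 1204 CPM in the adult libraries and 9.02, 1.42, 4.40 and 5.17 CPM in LAP+/OC2+ cells.

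**Figure D4:**
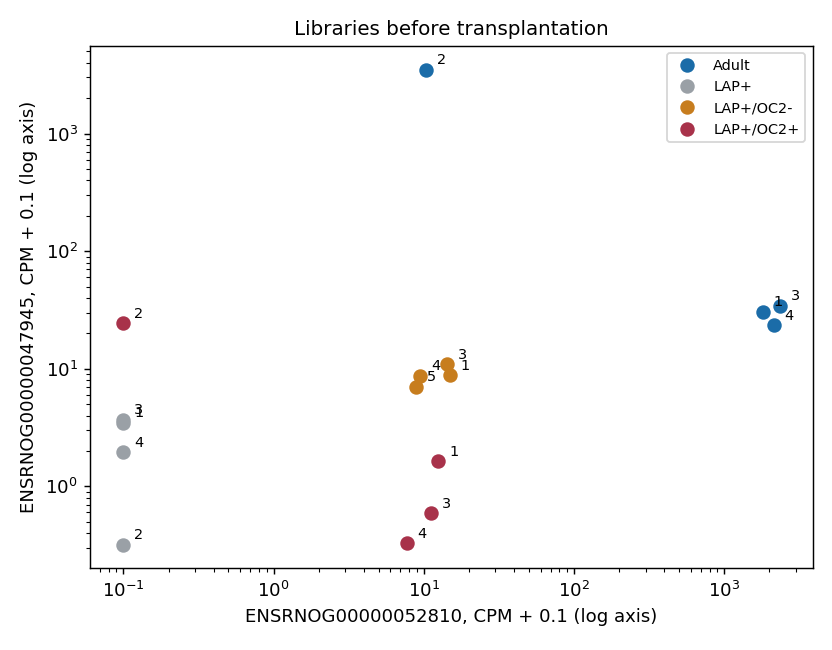
ENSRNOG00000047945 (y axis) against ENSRNOG00000052810 (x axis) in the 16 libraries before transplantation, as CPM + 0.1 on log axes, with the library number beside each point. Adult library 2 lies at 10.3 and 3496 CPM, and the other adult libraries between 1807 and 2342 and between 23.4 and 34.3 CPM.

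Across the 6 groups, the genes outside the window with the most similar group means were ENSRNOG00000001957 on chromosome 14 (22072024 to 22089248) and ENSRNOG00000009273 on chromosome 5 (77245143 to 77492013). Likeness was the root mean square difference of log2(CPM + 1) group means, centred within each stage, over 6782 genes. These were tested in both stages and had a mean of at least 10 CPM in adult cells. The group values below are what the search selected for and are a description. The root mean square difference was 0.084 and 0.088. ENSRNOG00000001957 had 1535 ± 1051 CPM in adult cells (SD, n = 4), with library 2 at 9.15, and at most 1 count in a LAP+ library. Its level was 10.1 ± 3.73 CPM for LAP+/OC2- and 6.65 ± 4.93 CPM for LAP+/OC2+ (SD, n = 4 each), whose library 2 had 1 count. ENSRNOG00000009273 had 1904 ± 1269 CPM in adult cells, with library 2 at 12.0, and 12.9 ± 3.74 and 9.10 ± 7.35 CPM in the OC2 sorts in the same order (SD, n = 4 each), where LAP+/OC2+ library 2 had no count. Their levels in tissue were 489 ± 198 and 1716 ± 1017 CPM in host and 350 ± 133 and 1588 ± 915 CPM in colony tissue (SD, n = 5 each). Centring removed the average level of each stage from the measure. Differences between the groups of a stage, host and colony included, entered it.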

How the data were processed

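The authors deposited raw counts of reads per feature for each library, per the file headers, with exon coordinates and lengths. The submitters' processing notes name featureCounts (Subread 1.5.2), the aligner STAR 2.5.2b, Trimmomatic 0.36 and bcl2fastq 2.17. Sources used here give no build, annotation release or strand setting, so near-identical copies may share reads. Per the labels' protocols, cell RNA went into NEBNext Ultra and captured tissue into SMARTer Stranded Pico libraries.

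The test on counts was that of edgeR 4.0.16 in R 4.3.3 (TMM, filterByExpr, robust quasi-likelihood F test, Benjamini-Hochberg adjustment over all genes tested, adjusted p of 0.05). The groups before transplantation shared 1 fit of 16 libraries. Colony and host were fitted on 10 libraries with the animal as a block, because the labels give the same animals (deviations correlated from -0.22 to 0.44, over 0.1 in 3 of 5). The difference of differences used 26. CPM is TMM-scaled within stage, and lower bounds use unscaled CPM at 3 counts per library. Limits cover counting error only. The labels call libraries biological replicates without naming separate animals before transplantation, so p-values measure the spread between these libraries. All 44 replicate pairs differed by more than sampling noise, with chi-square over its degrees of freedom between 5.21 and 290. Every row of the window was to be named, plus the 2 genes most like ENSRNOG00000052810. Marker and pathway lists of gene symbols could not be applied. Members and lists were chosen with earlier results of these data known. Alternatives were RLE factors, other filters, no mitochondrial features, DESeq2 1.42.0, limma-voom (limma 3.58.1), and each fit with the block added or removed. In addition, each library before transplantation, and each animal after it with its host and colony libraries, was left out in turn. Leaving out adult library 2 together with LAP+/OC2+ library 2, fitting the fetal sorts alone, and counting animals on unscaled CPM were added after the data were seen.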

Additional observations from a re-analysis of the deposited data

Results flagged for a closer look

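The colony minus host difference less the LAP+ minus adult difference was past the threshold for all 3 tested members, at log2 values of 17.3 for ENSRNOG00000052810, 8.44 for ENSRNOG00000013241 and 4.85 for ENSRNOG00000001466. These members passed the low-count filter through the adult and tissue libraries where they are high, so the count is a description. The sizes for ENSRNOG00000052810 and ENSRNOG00000013241 depend on how LAP+ libraries without a count are treated.

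Single libraries far from the rest of their group were found in 10 of 24 groups of values that vary. Chance gives about 1 in 20 for values without ties, and that rate does not apply to a single count in an otherwise empty group, which stands apart by construction. Host animal 243 stood at 34.7 CPM of ENSRNOG00000001466, against 4.20 to 8.23 in the other host libraries. The other 9 were libraries with 1 to 4 counts in a group otherwise without any. They were 0.258 CPM of ENSRNOG00000001466 in LAP+/OC2+ library 1, 0.0469 CPM of ENSRNOG00000013241 in LAP+/OC2- library 1 and 0.237 CPM of it in LAP+/OC2+ library 2. ENSRNOG00000047104 had 0.15 CPM in adult library 1, 0.0921 CPM in LAP+/OC2- library 3 and 0.0659 CPM in colony animal 242. ENSRNOG00000045862 had 0.0892 CPM in host animal 246 and 0.222 CPM in colony animal 249, and ENSRNOG00000059980 had 0.152 CPM in colony animal 246. The rule did not flag adult library 2 for ENSRNOG00000052810, at 10.3 CPM against 1807 to 2342 CPM in the other adult libraries.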

How the results depend on the processing

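No call changed direction under any alternative. For the fetal mean and for each fetal sort against adult cells, 1 member was called, and leaving out 1 library gave 1 to 3, since smaller groups let ENSRNOG00000013241 and ENSRNOG00000001466 through the filter. Without adult library 2 and LAP+/OC2+ library 2 the count was 3. With no low-count filter it was 3, or 4 for LAP+/OC2+ against adult (3 lower, 1 higher, ENSRNOG00000047104), and it was 1 in place of 0 for LAP+/OC2+ against LAP+/OC2- and 2 in place of 1 for LAP+/OC2+ against LAP+. Limma-voom gave 0 for LAP+/OC2+ against LAP+ and 1 in place of 0 for colony against host. For LAP+/OC2- against LAP+, 1 member in place of 0 was called by DESeq2, with the replicate block, without adult library 2 and LAP+/OC2+ library 2, and with the fetal sorts alone. Leaving out 1 library gave 0 to 0 and 1 to 1 for the LAP+/OC2+ comparisons with LAP+/OC2- and LAP+, and 0 to 1 for LAP+/OC2- against LAP+. Leaving out 1 animal, with its host and colony libraries, gave 0 to 1 for colony against host. The difference of differences gave 3 to 3 without 1 library before transplantation or 1 animal after it. That last count was 1 in place of 3 with a stricter filter, which only ENSRNOG00000052810 passed. The labels do not say that equal numbers before transplantation pair libraries. Their deviations correlated from -0.51 to 0.21, over 0.1 in 3 of 21. This cannot decide it, since pairs from the same animal after transplantation ranged from -0.22 to 0.44. With the replicate block ENSRNOG00000052810 in LAP+/OC2- against LAP+ had a log2 difference of 10.12 (edgeR adjusted p = 3.3e-06). That size depends on how LAP+ libraries without a count are treated. Without the block, colony minus host was -0.32 (adjusted p = 0.35). Over all genes, colony against host called 262 genes, and 5, 130, 2683, 157 and 0 without animals 242, 243, 246, 248 and 249, 0 without the block, 717 by DESeq2, 3205 by limma-voom, 751 with no filter and 22 with the stricter one. LAP+/OC2- against LAP+ called 54 genes, 208 by DESeq2, 183 by limma-voom, 82 without adult library 2, and 98 and 95 without LAP+ libraries 2 and 3. The stricter filter took the calls against adult cells from 10010 to 6666 (fetal mean), 8330 to 5545 (LAP+) and 10707 to 7060 (LAP+/OC2+), with 8452 genes tested in place of 13818. With RLE factors the median over all genes moved from -0.18 to -0.05 for LAP+/OC2+ against LAP+/OC2- and from -0.10 to 0.01 against LAP+.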
